A study of Mus musculus with 12 samples.

Results

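Transcript levels of 7 genes linked to the growth of fat pads and to adipocyte size were followed in eWAT, the epididymal white adipose tissue of mice, a visceral fat pad beside the epididymis. They were the secreted or membrane proteins Sfrp5, Npr3, Bmp3 and Fgf1, the synuclein Sncg, and the caveolae proteins Cav1 and Cav2. The genes were chosen by symbol, as 7 of 25229 listed genes with a symbol, and all 7 passed the filter on low values that left 15597 genes for testing. The 12 libraries came from C57BL/6 mice in 4 groups of 3 biological replicates. HFD_TKO held TET KO mice on a high-fat diet, HFD_WT wild-type mice on that diet, ND_TKO TET KO mice on a normal diet, and ND_WT wild-type mice on a normal diet. TET proteins oxidise 5-methylcytosine, which is a step towards the removal of DNA methylation. The series title places their loss in adipocytes. The Cre driver, the alleles, the mice's age and the feeding time are not given in the sources used here. RNA of the whole fat pad was sequenced, so each value averages adipocytes with vessels, immune cells and stroma. In such tissue, fewer cells of a type and less RNA per cell cannot be told apart.

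Caveolae are flask-shaped pits of the plasma membrane that are dense in adipocytes and in endothelial cells. Caveolin-1, the product of Cav1, builds them, caveolin-2 joins it in the same complex, and cavins and EHD2 coat and hold the pit, which can flatten when the membrane is stretched. Adipose expansion genes such as Sfrp5, Mest and Bmp3 are known in mice for levels that vary between animals with the growth of the fat pad. Sfrp5 encodes a secreted inhibitor of Wnt signalling, Bmp3 an atypical bone morphogenetic protein (BMP), Npr3 the clearance receptor that removes natriuretic peptides, Fgf1 a fibroblast growth factor (FGF) that acts under PPARgamma in fat, and Sncg gamma-synuclein, a lipid-droplet-associated protein of adipocytes.

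Cav2 and Cav1 are neighbours on one strand. In GRCm38 (mm10), Cav2 lies on the plus strand of chromosome 6 from 17281185 to 17289130, and Cav1 follows from 17306335 to 17341328, 17205 bases past the end of Cav2. Sfrp5 lies on the minus strand of chromosome 19 from 42197971 to 42202252. As TET enzymes act on methylated CpG sites, the 250 bases before these genes' starts are shown, from RefSeq in GRCm38, 5′ to 3′ on the gene's strand, with each CpG in capitals. The CG motif is its own reverse complement, so both strands hold the same sites. Cav1 has a pair of annotated starts, and the window before its second start lies within the gene between annotated exons. The windows are chr6:17280935-17281184 for Cav2, chr6:17306085-17306334 and chr6:17307390-17307639 for Cav1, and chr19:42202253-42202502 for Sfrp5.
Cav2: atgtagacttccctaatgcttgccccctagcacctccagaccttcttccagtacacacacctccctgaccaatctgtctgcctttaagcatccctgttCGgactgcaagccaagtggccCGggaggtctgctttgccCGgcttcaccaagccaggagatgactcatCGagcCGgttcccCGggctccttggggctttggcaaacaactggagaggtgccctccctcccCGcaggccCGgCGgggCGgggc
Cav1, first start: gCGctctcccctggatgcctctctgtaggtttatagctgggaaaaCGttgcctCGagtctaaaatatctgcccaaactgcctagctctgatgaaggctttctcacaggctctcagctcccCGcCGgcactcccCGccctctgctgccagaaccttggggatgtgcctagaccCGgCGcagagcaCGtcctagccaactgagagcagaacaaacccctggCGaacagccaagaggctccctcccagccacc
Cav1, second start: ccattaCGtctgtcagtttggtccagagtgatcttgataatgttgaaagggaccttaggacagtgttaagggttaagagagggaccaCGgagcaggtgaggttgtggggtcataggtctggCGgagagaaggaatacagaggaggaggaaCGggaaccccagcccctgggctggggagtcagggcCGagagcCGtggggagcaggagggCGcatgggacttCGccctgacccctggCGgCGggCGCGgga
Sfrp5: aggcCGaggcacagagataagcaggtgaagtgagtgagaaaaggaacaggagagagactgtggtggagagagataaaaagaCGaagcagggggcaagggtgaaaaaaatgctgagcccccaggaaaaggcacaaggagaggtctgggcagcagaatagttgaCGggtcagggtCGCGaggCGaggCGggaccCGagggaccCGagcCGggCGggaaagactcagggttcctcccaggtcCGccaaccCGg
The Cav2 window held 10 CpG sites, the Cav1 windows 10 and 12, and the Sfrp5 window 13. Of all 32851 promoter windows of this length in the table, 92.1% held at least 1 CpG and the median was 6. A share of 37.8% held at least as many as the Cav2 window and the first Cav1 window, 33.5% as many as the second Cav1 window, and 31.5% as many as the Sfrp5 window. These counts describe sequence, and no methylation was measured in these libraries. The windows of Sncg and Npr3 held 7 and 6 CpG sites. The Npr3 window, chr15:11907372-11907621, lies within the span of this minus-strand gene, which reaches to 11907837.

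Values are read counts scaled to library size, as CPM, and changes are log2 differences of log2(CPM + 1) with their standard error (SE), from a limma model of all 12 libraries. A gene was called at a Benjamini-Hochberg adjusted p under 0.05 over all tested genes. Libraries held between 20973140 and 25606629 reads. Among the ND_WT libraries, replicate 3 stood apart on the second principal component (-6.21, against -32.0 and -32.6 for replicates 1 and 2), which carried 15.8% of the variance. On the log2(CPM + 1) scale it was set against the mean of ND_WT replicates 1 and 2. It was 2-fold or more above that mean for 242 genes (1.55% of those tested) and 2-fold or more below it for 143 genes (0.917%). Lep, the adipocyte hormone leptin, held 4.37-fold of the mean CPM of replicates 1 and 2 in it, and the expansion gene Mest 3.88-fold. Several values of the members are therefore given also without this library. It held the highest ND_WT level of every member, so leaving it out had to lower the ND_WT mean. Counts over whole Tet genes do not check a deletion of part of a gene. Tet1, at 3.07 CPM or less in every library, was called higher in TKO libraries on HFD (0.76, adjusted p = 0.010) and on the normal diet (0.97, adjusted p = 0.019), the second call being lost without ND_TKO replicate 1 or 3 or ND_WT replicate 2 (adjusted p between 0.062 and 0.076) and with only these groups in the fit (0.072). Tet2 and Tet3 were not called for TKO on either diet. The Tet2 change on HFD (-0.47, adjusted p = 0.066) had an adjusted p of 0.038, 0.045 and 0.042 without ND_TKO replicate 2, ND_WT replicate 3 and HFD_TKO replicate 2, and of 0.028 with only these groups in the fit. The labelled tissue was checked against its markers: the summed level of 15 adipocyte markers was 20985 CPM or more in every library, and 7 of 10 epididymal epithelium markers had 3 or fewer reads in all 12 libraries.

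In mice on HFD, both caveolin genes were higher in TKO than in WT libraries, and the levels in TKO libraries were close to 2-fold. On the normal diet the TKO libraries also lay above the WT libraries, by a smaller margin. In WT mice HFD lowered both genes, whereas in TKO mice no difference between diets was called. Cav1 held 3915, 3962 and 3940.3 CPM in the HFD_TKO libraries and 2091, 2016 and 1966 CPM in HFD_WT. It held 3956, 3853 and 4031 CPM in ND_TKO, and 3135, 2989.7 and 3683 CPM in ND_WT. The HFD_WT libraries were thus the lowest 3 of the 12, the ND_WT libraries came next, and the TKO libraries of both diets shared the top range without a gap between them. Cav2 held 968, 936 and 898 CPM in HFD_TKO and 526, 465 and 514 CPM in HFD_WT. It held 860.0, 924 and 859 CPM in ND_TKO, and 688, 687 and 748 CPM in ND_WT. The same order of groups held for Cav2, with no overlap except between the TKO groups.

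**Figure D1:**
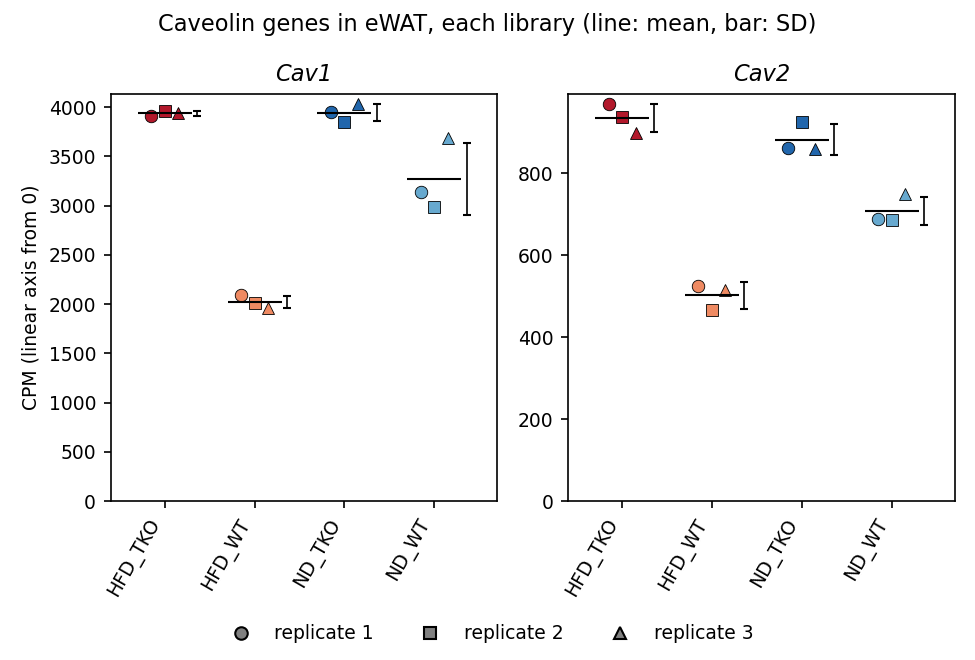
Levels of Cav1 and Cav2 (CPM, linear axis from 0) in each library of HFD_TKO, HFD_WT, ND_TKO and ND_WT, with points for libraries, lines for group means and bars for the SD (n = 3). The HFD_WT libraries are the lowest for both genes (Cav1 1966 to 2091 CPM), and the TKO libraries of both diets overlap.

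On HFD, Cav1 averaged 3939 ± 23.8 CPM in TKO and 2024 ± 62.8 CPM in WT (SD, n = 3 each), a ratio of 1.95 and a log2 change of 0.96 (SE 0.11, adjusted p = 2.6e-05). Cav2 averaged 934 ± 34.9 CPM in TKO and 502 ± 32.1 CPM in WT, with a log2 change of 0.90 (SE 0.08, adjusted p = 2.7e-06). Thus 2 of the 7 members rose in HFD_TKO and none fell, where 46.7% of all tested genes were called in this comparison, 15.2% higher and 31.6% lower. Groups did not overlap for 3 members, all higher in HFD_TKO (Cav1, Cav2 and Npr3), where 21.0% of all genes did not overlap and were higher and 38.6% did not overlap and were lower. Both caveolin calls remained under each of the 10 other settings and with any 1 library left out. On the normal diet, Cav1 averaged 3947 ± 89.3 CPM in TKO and 3269 ± 366 CPM in WT, with a log2 change of 0.28 (SE 0.11, adjusted p = 0.17). Cav2 averaged 881 ± 37.4 CPM in TKO and 707 ± 35.2 CPM in WT, and its change of 0.32 (SE 0.08) was called (adjusted p = 0.037). That call was lost without any 1 of 10 libraries (adjusted p between 0.050 and 0.13), being kept without ND_WT replicate 3 or HFD_TKO replicate 1, and it was lost with only these groups in the fit (0.14). Without ND_WT replicate 3, the Cav1 change was 0.37 (adjusted p = 0.033).

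The effect of TKO on the caveolins was larger on HFD than on the normal diet by the test of the interaction. The difference of the TKO effects, HFD minus ND, was 0.68 for Cav1 (SE 0.16, adjusted p = 0.0070) and 0.58 for Cav2 (SE 0.11, adjusted p = 0.0023). These 2 members were the ones called for the interaction, which was called for 28.7% of all genes and higher for 9.94%. The Cav1 interaction was not called without the filter on low values (0.68, adjusted p = 0.061). Seen across diets, Cav1 fell by 0.69 in HFD_WT against ND_WT (SE 0.11, adjusted p = 2.4e-04), and Cav2 fell by 0.50 (SE 0.08, adjusted p = 1.9e-04), and without ND_WT replicate 3 the changes were -0.60 for Cav1 and -0.45 for Cav2. In TKO mice the HFD minus ND change was 0.00 for Cav1 (SE 0.11, adjusted p = 0.99) and 0.08 for Cav2 (SE 0.08, adjusted p = 0.48). The ratio of Cav1 to Cav2, which does not depend on library scaling, averaged 4.22 ± 0.17 in HFD_TKO, 4.04 ± 0.26 in HFD_WT, 4.49 ± 0.28 in ND_TKO and 4.61 ± 0.29 in ND_WT (SD, n = 3). The exact two-sided permutation p was 0.40 for HFD_TKO against HFD_WT and 0.70 for ND_TKO against ND_WT. For HFD_WT against ND_WT the log2 difference of the ratio was -0.19 with an exact p of 0.10, the smallest that 3 against 3 libraries allow.

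Marker levels of adipocytes and macrophages also differed between the groups. In HFD_TKO against HFD_WT, 13 of 15 adipocyte markers rose, with a median change of 0.98 against -0.10 over all genes, and their summed level spanned 35551 to 37962 CPM against 20985 to 22623 CPM. On HFD against ND in WT mice, 13 of these markers fell and 1 rose, with a median change of -1.20 against 0.13 over all genes. In HFD_TKO against ND_TKO, 10 fell and 2 rose (7 called in all without ND_TKO replicate 3), with a median change of -0.51, while Cav1 stood at 0.00. In ND_TKO against ND_WT, 2 of the adipocyte markers rose and 3 fell (2 or 3 called in all without ND_TKO replicate 1 or 2 or ND_WT replicate 1, and 3 with only these groups in the fit), with a median change of -0.01. Of 12 macrophage markers, 11 fell in HFD_TKO against HFD_WT and 11 rose in HFD_WT against ND_WT, opposite to the caveolins. Their summed level spanned 1568 to 1786 CPM in HFD_TKO, 6557 to 7337 CPM in HFD_WT, 862 to 1180 CPM in ND_TKO and 1024 to 1554 CPM in ND_WT. Markers of endothelial cells, the other caveola-rich cell type of fat, overlapped between HFD_TKO (1001 to 1135 CPM) and HFD_WT (999 to 1111 CPM). Of 12 endothelial markers, 2 rose and none fell in this comparison, or 6 and 0 with TMM scaling (1 called without any 1 of the HFD libraries except HFD_WT replicate 3). The part of these cell types in the caveolin result was not tested. Scaling bears on the size of such changes: with trimmed-mean (TMM) scaling the median change of all genes moved by 0.11 in HFD_TKO against HFD_WT and by -0.14 in HFD_WT against ND_WT.

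The other caveola genes were read from a list of 12 that included Cav1 and Cav2. Of 11 tested, 7 rose and 1 fell in HFD_TKO against HFD_WT, with a median change of 0.83 against -0.10 over all genes. Of all tested genes, 15.2% were called higher and 31.6% lower there. Without Cav1 and Cav2, 5 of 9 rose and 1 fell, with a median of 0.50. Cavin1, the core coat protein of caveolae, averaged 1773 ± 114 CPM in HFD_TKO and 1255 ± 74.7 CPM in HFD_WT (log2 change 0.50, SE 0.11, adjusted p = 0.0032). Cavin2, a coat protein that bends the membrane, averaged 1123 ± 105 CPM in HFD_TKO and 549.9 ± 33.9 CPM in HFD_WT (log2 change 1.03, SE 0.11, adjusted p = 1.5e-05). Ehd2, the ATPase that holds the neck of the caveola, averaged 1265 ± 48.3 CPM in HFD_TKO and 538 ± 4.03 CPM in HFD_WT (log2 change 1.23, SE 0.09, adjusted p = 1.1e-06). Cavin3, a further coat protein, also rose (1.28, SE 0.28, adjusted p = 0.0027), as did the membrane-curving Pacsin3 (0.83, SE 0.16, adjusted p = 0.0011). Ehd4, an endosomal relative of Ehd2, was the member that fell, at 79.1 ± 4.10 CPM in HFD_TKO and 272 ± 12.3 CPM in HFD_WT (-1.77, SE 0.08, adjusted p = 4.4e-08). Cavin1, Cavin2, Cavin3, Ehd2 and Pacsin3 thus moved in the direction of Cav1, and Ehd4 in the opposite one.

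**Figure D2:**
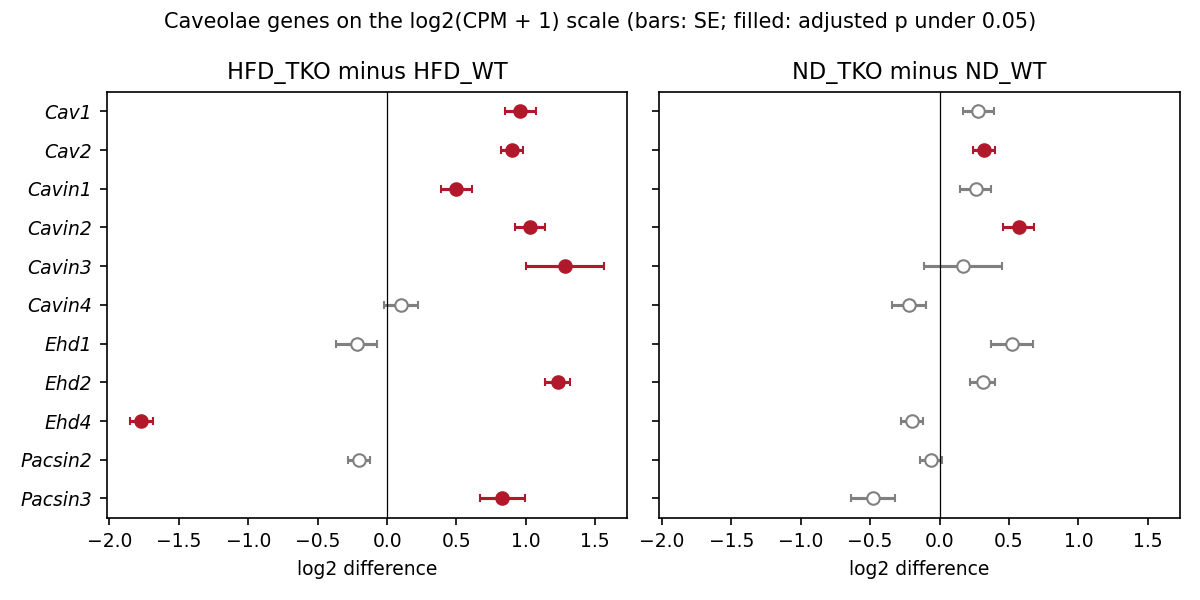
Log2 changes with SE of the tested caveola genes in HFD_TKO against HFD_WT and in ND_TKO against ND_WT. On HFD, 7 of 11 were called higher, Ehd2 at 1.23 and Cavin2 at 1.03, and Ehd4 at -1.77 was the gene called lower.

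In HFD_WT against ND_WT, 3 of 11 tested caveola genes rose and 5 fell, with a median change of -0.23 against 0.13 over all genes. Of all tested genes, 37.8% were called higher and 20.3% lower in this comparison. Ehd4 rose by 1.80 (SE 0.08, adjusted p = 1.4e-08) and Pacsin3 fell by 2.09 (SE 0.16, adjusted p = 5.0e-07). In HFD_TKO against ND_TKO, 1 rose (Cavin3) and 1 fell (Pacsin3), where 16.2% of all genes were called higher and 5.90% lower. On the normal diet, 2 of 11 genes, Cav2 and Cavin2, rose in TKO, with a median change of 0.26 against -0.06 over all genes. Among all tested genes, 2.16% were called higher and 3.54% lower for TKO on that diet. Cavin2 averaged 1155 ± 70.7 CPM in ND_TKO and 782 ± 108 CPM in ND_WT (0.57, SE 0.11, adjusted p = 0.013), a call lost without ND_WT replicate 1 (0.064) and with only these groups in the fit (0.067). The count on the normal diet was 6 without ND_WT replicate 3, 0 without ND_WT replicate 1, and 1 without any other single library except HFD_TKO replicate 1.

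Sfrp5 was the member in which 1 ND_WT library departed most from its group. The gene held 143, 171 and 178 CPM in HFD_TKO and 108, 112 and 149 CPM in HFD_WT. In the normal-diet groups it held 201, 127 and 146 CPM in ND_TKO, and 16.9, 7.79 and 244 CPM in ND_WT replicates 1, 2 and 3. These 3 ND_WT values rest on 355, 169 and 5355 reads. ND_WT thus held both the lowest 2 libraries and the highest library of all 12, and its range covered each other group. Replicate 3 stood at 19.8-fold of the mean of ND_WT replicates 1 and 2. The means were 158 ± 38.0 CPM in ND_TKO and 89.7 ± 134 CPM in ND_WT, with a log2 change of 2.21 (SE 0.87, adjusted p = 0.16). Without replicate 3 the change was 3.64 (adjusted p = 2.9e-05). Without any other single library it was not called, and the lowest change was 1.24. When HFD_WT was set against ND_WT the change was 1.86 (SE 0.87, adjusted p = 0.084), and 3.29 without replicate 3 (adjusted p = 1.6e-06). On HFD the TKO minus WT change was 0.42 (SE 0.87, adjusted p = 0.73), and Sfrp5 was called higher with only these groups in the fit. The SE of 0.87 is shared by all 4 groups, so it includes the wide spread of ND_WT. HFD_TKO minus ND_TKO was 0.07 (adjusted p = 0.96). The interaction was -1.79 (SE 1.23, adjusted p = 0.31) and -3.22 without replicate 3 (adjusted p = 8.8e-05).

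**Figure D3:**
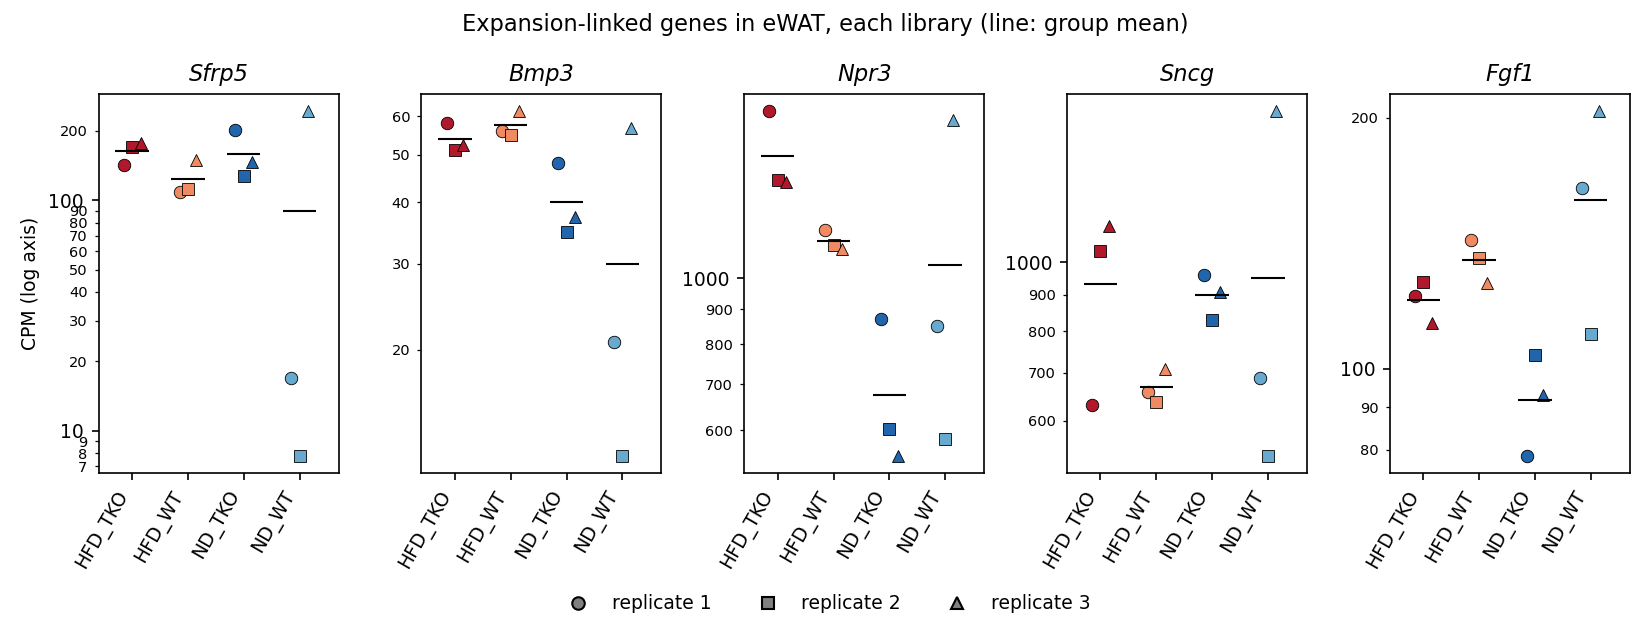
Levels of Sfrp5, Npr3, Sncg, Bmp3 and Fgf1 (CPM, log axis) in each library of HFD_TKO, HFD_WT, ND_TKO and ND_WT, with lines for group means. ND_WT replicate 3 lies above the other libraries of its group for all 5 genes, from 244 against 16.9 and 7.79 CPM for Sfrp5 to 204 against 165 and 110.2 CPM for Fgf1.

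Secreted inhibitors of Wnt signalling were read from a list of 13 that included Sfrp5. Of 9 tested, none rose and 5 fell in HFD_TKO against HFD_WT, with a median change of -0.57 against -0.10 over all genes. Sfrp1, a paralog of Sfrp5, averaged 19.9 ± 7.02 CPM in HFD_TKO and 84.5 ± 12.8 CPM in HFD_WT (-2.07, SE 0.29, adjusted p = 1.1e-04). In HFD_WT against ND_WT, 4 of the 9 rose, Sfrp1 by 2.17 (SE 0.29, adjusted p = 5.2e-05), and none fell. A stricter filter left 2 called genes in each of these comparisons. Of all tested genes, 15.2% were called higher and 31.6% lower in HFD_TKO against HFD_WT. In HFD_WT against ND_WT these shares were 37.8% and 20.3%. The counts of the inhibitors and of the lists below are to be read beside these shares. Of 9 tested Wnt ligands, 2 rose and 1 fell in HFD_TKO against HFD_WT (5 called without ND_WT replicate 3, and 1 without HFD_TKO replicate 2, HFD_TKO replicate 3 or HFD_WT replicate 1), and 2 fell in HFD_WT against ND_WT (4 called without ND_WT replicate 3), among them Wnt2b (-1.50, SE 0.42, adjusted p = 0.0087). Of 14 tested Wnt receptors, 5 rose and 4 fell in HFD_TKO against HFD_WT, where the co-receptor Lrp5 rose by 0.54 (SE 0.09, adjusted p = 3.3e-04) and the receptor kinase Ror1 fell by 1.28 (SE 0.15, adjusted p = 2.8e-05). On HFD against ND in WT mice, 4 receptors rose and 3 fell, or 2 and 8 with TMM scaling.

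Among 10 tested Wnt target genes, 1 rose and 5 fell in HFD_TKO against HFD_WT, with a median change of -0.44. Apcdd1, a target that itself inhibits Wnt signalling, rose, at 239 ± 19.4 CPM in HFD_TKO and 49.7 ± 3.15 CPM in HFD_WT (2.24, SE 0.08, adjusted p = 1.6e-08). Tcf7, a transcription factor of T cells as well as a Wnt target, fell by 1.82 (SE 0.49, adjusted p = 0.0095), beside lymphocyte markers of which 9 of 9 fell. Whether the fall of Tcf7 goes with that of the markers was not tested. When HFD_WT was set against ND_WT, 5 targets rose and 3 fell. The cell-cycle gene Ccnd1 rose by 1.77 there (SE 0.13, adjusted p = 4.1e-07) and Apcdd1 fell by 2.72 (SE 0.08, adjusted p = 1.2e-09). On the normal diet, none of the Wnt inhibitors, ligands, receptors and targets rose in TKO, and 1 inhibitor and 1 target fell, neither of which remained called with each single library left out. Without ND_WT replicate 3, 2 inhibitors, 3 ligands and 1 receptor were called in ND_TKO against ND_WT. Of these, 1 inhibitor (Sfrp5), 2 ligands and the receptor rose. With TMM scaling, 1 receptor rose.

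Bmp3 (chromosome 5 of GRCm38, 98854415 to 98884053, plus strand) differed between diets in WT mice, with 1 ND_WT library again at the level of the HFD groups. It held 58.0, 51.2 and 52.4 CPM in HFD_TKO and 55.9, 55.0 and 61.5 CPM in HFD_WT. It held 48.2, 34.8 and 37.4 CPM in ND_TKO, and 20.8, 12.2 and 56.8 CPM in ND_WT replicates 1, 2 and 3. ND_WT replicates 1 and 2 were the lowest of the 12 libraries, while replicate 3, at 3.44-fold of their mean, lay within the range of HFD_WT. Means were 57.5 ± 3.52 CPM in HFD_WT and 29.9 ± 23.7 CPM in ND_WT, and the log2 change of 1.20 (SE 0.38) was called (adjusted p = 0.018). Of the 7 members 1 rose (Bmp3) and 2 fell (Cav1 and Cav2) in HFD_WT against ND_WT, where 58.1% of all genes were called, 37.8% higher and 20.3% lower. Groups did not overlap for 2 members, both lower, where 23.8% of all genes had that pattern and 41.6% did not overlap and were higher. The Bmp3 call was lost without ND_WT replicate 1 (1.08, adjusted p = 0.059) or replicate 2 (0.72, adjusted p = 0.066), and by edgeR on recovered reads (0.78, adjusted p = 0.11). Without replicate 3 the change was 1.79. On HFD the TKO minus WT change was -0.09 (adjusted p = 0.87), and 0.04 with TMM scaling. In ND_TKO against ND_WT the change was 0.68 (SE 0.38, adjusted p = 0.32), and 1.27 without replicate 3 (adjusted p = 0.0017). The HFD_TKO and ND_TKO libraries did not overlap, although the change of 0.43 (SE 0.38) was not called (adjusted p = 0.46). The interaction was -0.77 (adjusted p = 0.32), and -1.36 without replicate 3 (adjusted p = 0.0018).

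Other BMP ligands were also called, at counts to be read beside the share of all tested genes. That share was 46.7% in HFD_TKO against HFD_WT and 58.1% in HFD_WT against ND_WT. Of 15 tested BMP and related ligands, Bmp3 included, 5 rose and 3 fell in HFD_TKO against HFD_WT (5 called in all without HFD_TKO replicate 2 or replicate 3), with a median change of 0.22 against -0.10 over all genes. Gdf5, a ligand of joint development, averaged 5.94 ± 0.962 CPM in HFD_TKO and 0.58 ± 0.121 CPM in HFD_WT (2.13, SE 0.12, adjusted p = 1.9e-07). It also rose in TKO on the normal diet, at 5.31 ± 0.228 CPM in ND_TKO and 1.87 ± 0.0383 CPM in ND_WT (1.13, SE 0.12, adjusted p = 4.3e-04). Gdf3, a ligand made by macrophages of obese mouse fat, fell to 0.521 ± 0.182 CPM in HFD_TKO, against 11.7 ± 1.17 CPM in HFD_WT (-3.07, SE 0.18, adjusted p = 2.1e-07), beside the macrophage markers of which 11 of 12 fell. A link between Gdf3 and these markers was not tested. In HFD_WT against ND_WT, 6 ligands rose and 3 fell, with Gdf3 at 3.39 (SE 0.18, adjusted p = 3.9e-08) and Bmp4, an inducer of adipocyte commitment, at -1.30 (SE 0.19, adjusted p = 9.9e-05). Ligand values therefore went both ways in each of these comparisons.

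Of 10 BMP and activin receptors, 1 rose and 2 fell in HFD_TKO against HFD_WT, or 2 and 0 with TMM scaling (1 called without HFD_TKO replicate 3). Acvr1c, the adipocyte receptor ALK7, rose, at 129 ± 20.6 CPM in HFD_TKO and 57.4 ± 12.6 CPM in HFD_WT (1.17, SE 0.23, adjusted p = 0.0014). On HFD against ND in WT mice, 4 receptors rose and 2 fell, or 0 and 4 with TMM scaling, and between 2 and 3 were called without ND_WT replicate 1, HFD_WT replicate 1 or HFD_WT replicate 3. In that comparison Acvr1c fell by 1.75 (SE 0.23, adjusted p = 4.6e-05). Of 9 tested antagonists, 1 rose and 2 fell in HFD_TKO against HFD_WT. Bmper, a secreted BMP-binding protein, averaged 25.9 ± 0.949 CPM in HFD_TKO and 111 ± 3.06 CPM in HFD_WT (-2.05, SE 0.11, adjusted p = 1.3e-07). When HFD_WT was set against ND_WT, 2 antagonists rose and 3 fell. In TKO mice on the normal diet, Fst, the activin-binding follistatin, fell relative to WT (-0.94, SE 0.12, adjusted p = 0.0011). Of 7 BMP target genes, Id2 was called in HFD_TKO against HFD_WT (-1.67, SE 0.14, adjusted p = 1.6e-06). In 8 of 10 other settings 2 targets were called (1 higher and 1 lower with TMM scaling), and 3 were called without HFD_TKO replicate 1 and 2 without ND_WT replicate 2, ND_WT replicate 3 or HFD_WT replicate 2. In HFD_WT against ND_WT, 1 target rose and 2 fell (1 and 4 with TMM scaling, and 5 called without HFD_TKO replicate 1).

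Npr3 (chromosome 15 of GRCm38, 11839896 to 11907837, minus strand) differed between the diets in TKO mice. It held 1754, 1389 and 1379 CPM in HFD_TKO and 1175, 1117 and 1102 CPM in HFD_WT. It held 873, 603 and 550.5 CPM in ND_TKO, and 851, 582 and 1703 CPM in ND_WT replicates 1, 2 and 3. The HFD_TKO libraries lay above those of HFD_WT and of ND_TKO without overlap, and ND_WT replicate 3 fell within the HFD_TKO range. Means were 1508 ± 214 CPM in HFD_TKO and 675 ± 173 CPM in ND_TKO, and the log2 change of 1.18 (SE 0.31) was called (adjusted p = 0.018). Npr3 was the 1 member called between diets in TKO mice, where 22.1% of all genes were called, 16.2% higher and 5.90% lower. Groups did not overlap for 3 members, all higher in HFD_TKO (Npr3, Bmp3 and Fgf1), where 27.7% of all genes had that pattern and 11.7% did not overlap and were lower. The Npr3 call was lost without ND_TKO replicate 2 (1.11, adjusted p = 0.056), ND_TKO replicate 3 (1.05, adjusted p = 0.079) or HFD_TKO replicate 1 (1.06, adjusted p = 0.061). On HFD the TKO minus WT change was 0.41 (SE 0.31, adjusted p = 0.31, and 0.018 with only these groups in the fit). On HFD against ND in WT mice the change was 0.26 (adjusted p = 0.49), and 0.68 without replicate 3 (adjusted p = 0.013). In ND_TKO against ND_WT it was -0.51 (adjusted p = 0.35), and -0.09 without replicate 3 (adjusted p = 0.82). The interaction was 0.92 (SE 0.43, adjusted p = 0.14), and it was 1.27 without ND_WT replicate 2 (adjusted p = 0.022) and 0.49 without ND_WT replicate 3 (adjusted p = 0.19). An exon of Npr3 overlaps the gene Gm5144 on the opposite strand, so some of its reads may belong to that gene.

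Of the natriuretic peptide list, Npr3 included, 10 genes were tested. In HFD_TKO against HFD_WT, 1 rose and 1 fell (1 called without any 1 of the HFD libraries except HFD_TKO replicate 3), and the median change of -0.07 was near that of all genes (-0.10). The gene that rose was Npr2, the guanylyl cyclase receptor of C-type natriuretic peptide, at 62.8 ± 7.26 CPM in HFD_TKO and 42.6 ± 2.03 CPM in HFD_WT (0.55, SE 0.10, adjusted p = 6.3e-04). Npr2 fell by 1.26 in HFD_WT against ND_WT (SE 0.10, adjusted p = 5.5e-07), where 4 of the list rose and 2 fell (2 and 2 with TMM scaling). Pde5a, which degrades cyclic GMP, rose by 0.71 there (SE 0.18, adjusted p = 0.0061). For TKO on the normal diet, Npr2 was the gene of the list that fell in TKO (-0.47, SE 0.10, adjusted p = 0.016), a call lost without replicate 1 or 3 of ND_TKO or replicate 1 or 2 of ND_WT (adjusted p between 0.058 and 0.076). The effect of TKO on Npr2 differed between diets (1.01, SE 0.14, adjusted p = 2.3e-04). Npr1, the receptor of atrial natriuretic peptide, was not called for TKO on either diet (-0.03 on HFD and -0.05 on the normal diet).

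Fgf1 (chromosome 18 of GRCm38, 38838672 to 38929470, minus strand) was lower in TKO than in WT mice on the normal diet. It held 122, 127 and 113 CPM in HFD_TKO and 143, 136 and 127 CPM in HFD_WT. It held 78.7, 104 and 93.1 CPM in ND_TKO, and 165, 110.2 and 204 CPM in ND_WT replicates 1, 2 and 3. All ND_TKO libraries lay below all ND_WT libraries, with ND_WT replicate 2 the nearest, and HFD_TKO touched the range of HFD_WT. Means were 91.9 ± 12.6 CPM in ND_TKO and 160 ± 47.1 CPM in ND_WT, with a log2 change of -0.75 (SE 0.18, adjusted p = 0.030). Of the 7 members, 1 rose (Cav2) and 1 fell (Fgf1) in ND_TKO against ND_WT, where 5.70% of all genes were called, 2.16% higher and 3.54% lower. Groups did not overlap for 2 members higher (Cav1 and Cav2) and 1 lower (Fgf1), against 7.96% and 15.8% of all genes. The Fgf1 call was lost without ND_TKO replicate 1 (adjusted p = 0.11), ND_TKO replicate 3 (0.084) or ND_WT replicate 1 (0.11), and with only these groups in the fit (0.13). Without ND_WT replicate 3, 5 members were called, namely Sfrp5, Bmp3, Cav1 and Cav2 as higher and Fgf1 as lower (-0.56). The calls over all genes also rose in that setting, to 1853 (875 higher and 978 lower), from 889 with all libraries.

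On HFD, Fgf1 averaged 121 ± 7.04 CPM in TKO and 135 ± 8.13 CPM in WT, with a change of -0.16 (adjusted p = 0.50). Between diets the change was 0.40 in TKO mice (SE 0.18, adjusted p = 0.13) and -0.20 in WT mice (adjusted p = 0.36). Without ND_WT replicate 2, which adds to the shared estimate of spread, the TKO value had an adjusted p of 0.025, and the WT change was -0.44 (adjusted p = 0.011). Without ND_WT replicate 3 the WT change was 0.00. The interaction was 0.60 (SE 0.25, adjusted p = 0.097) by limma and 0.72 on recovered reads by edgeR (adjusted p = 0.046) and DESeq2 (adjusted p = 0.019). The Fgf1 gene lies within the span of Arhgap26 on the opposite strand, with no exon in common.

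Of 12 tested fibroblast growth factors, Fgf1 included, 3 rose and 3 fell in HFD_TKO against HFD_WT (3 called in all without HFD_WT replicate 2). Fgf7, a growth factor of stromal cells, fell by 1.61 (SE 0.16, adjusted p = 6.2e-06), beside stromal markers of which 6 of 10 fell. The part of stromal cells in the Fgf7 change was not tested. Among all tested genes, 46.7% were called in HFD_TKO against HFD_WT. When HFD_WT was set against ND_WT, 4 of the factors rose and 4 fell, where 58.1% of all genes were called. Fgf13, an intracellular relative of the family, rose by 2.09 there (SE 0.46, adjusted p = 0.0021) and Fgf11 fell by 1.40 (SE 0.12, adjusted p = 1.3e-06). On the normal diet Fgf13 was the factor that rose in TKO, at 129 ± 26.7 CPM in ND_TKO and 23.9 ± 23.0 CPM in ND_WT (2.77, SE 0.46, adjusted p = 0.0051, and 0.056 with only these groups in the fit). With 1 library left out this change was 2.22 to 3.50. Fgf13 was also called higher in HFD_TKO against HFD_WT (1.27, SE 0.46, adjusted p = 0.040). That call was lost without any 1 of 8 libraries (highest adjusted p 0.11) and without the filter on low values (0.065).

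Of 7 FGF receptors and co-receptors, 2 rose and none fell in HFD_TKO against HFD_WT. Fgfrl1, a receptor without a kinase domain, averaged 267 ± 9.76 CPM in HFD_TKO and 113 ± 2.53 CPM in HFD_WT (1.24, SE 0.08, adjusted p = 3.4e-07). In HFD_WT against ND_WT, 2 fell and none rose, Fgfrl1 by 1.30 (SE 0.08, adjusted p = 9.1e-08). Fgfr2 rose in ND_TKO, at 34.5 ± 3.79 CPM against 15.2 ± 3.98 CPM in ND_WT (1.16, SE 0.18, adjusted p = 0.0033). Among 12 feedback targets of FGF signalling, 5 fell and none rose in HFD_TKO against HFD_WT (3 with TMM scaling, or without any 1 of HFD_TKO replicates 2 and 3 and HFD_WT replicates 1 and 2), and 7 rose and none fell in HFD_WT against ND_WT. Spred1, an inhibitor of the Ras pathway, fell by 1.23 in HFD_TKO against HFD_WT (SE 0.10, adjusted p = 1.8e-06) and rose by 1.86 in HFD_WT against ND_WT (SE 0.10, adjusted p = 4.4e-08).

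Sncg (chromosome 14 of GRCm38, 34370274 to 34374669, minus strand) was called in no comparison. It held 632, 1037 and 1125 CPM in HFD_TKO and 659, 636 and 709 CPM in HFD_WT. It held 959, 830.5 and 908 CPM in ND_TKO, and 688, 536 and 1629 CPM in ND_WT replicates 1, 2 and 3. HFD_TKO replicate 1 lay below the other libraries of its group and below all HFD_WT libraries, and ND_WT replicate 3, at 2.66-fold of the mean of replicates 1 and 2, was the highest of all 12. The TKO minus WT change was 0.44 on HFD (SE 0.33, adjusted p = 0.31) and 0.09 on the normal diet (adjusted p = 0.92), and the normal-diet value was 0.56 without ND_WT replicate 3 (adjusted p = 0.099). The HFD minus ND change was 0.01 in TKO (adjusted p = 0.99) and -0.34 in WT (adjusted p = 0.40), and the WT value was 0.14 without ND_WT replicate 3. Of 2 tested synucleins, Sncg among them, none was called in any comparison.

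**Figure D4:**
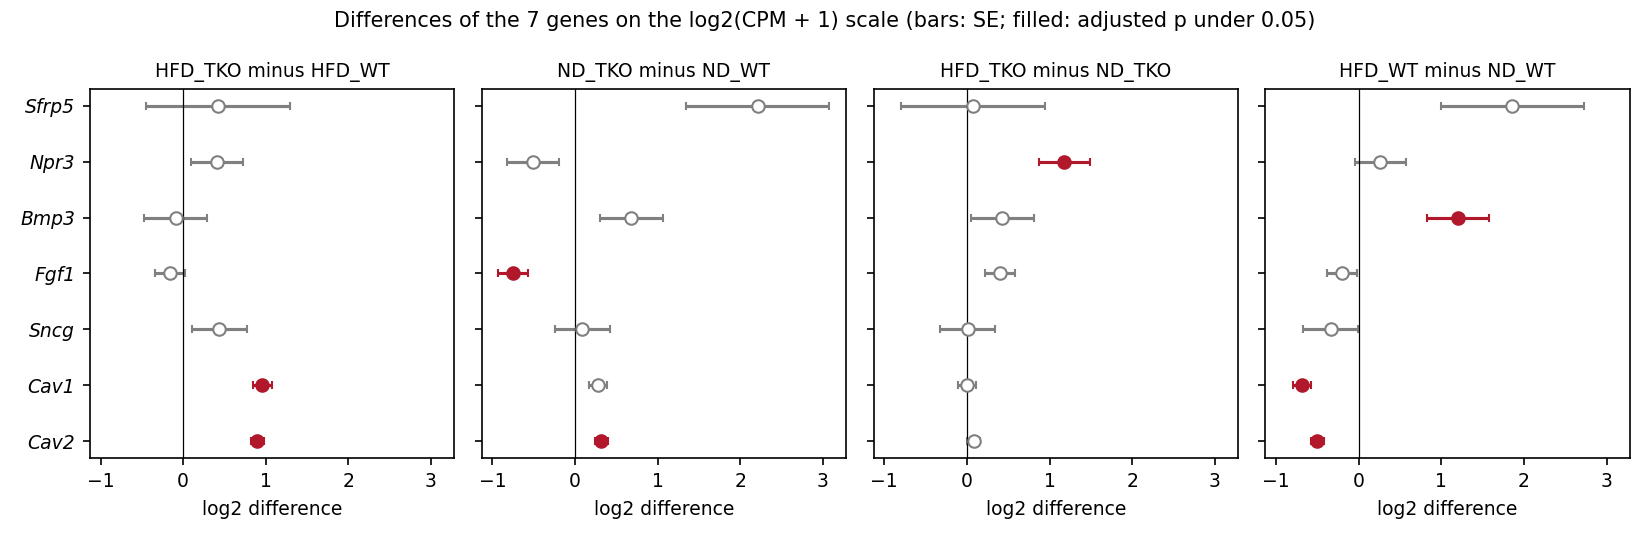
Log2 changes with SE of the 7 members in HFD_TKO against HFD_WT, ND_TKO against ND_WT, HFD_TKO against ND_TKO and HFD_WT against ND_WT, with called changes marked. Cav1 and Cav2 were at 0.96 and 0.90 in HFD_TKO against HFD_WT and below 0 in HFD_WT against ND_WT, and Sfrp5 had the widest error (SE 0.87).

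The departure of ND_WT replicate 3 differed among the members. For the genes linked to expansion it held 19.8-fold (Sfrp5), 3.44-fold (Bmp3), 2.66-fold (Sncg), 2.38-fold (Npr3) and 1.48-fold (Fgf1) of the mean of ND_WT replicates 1 and 2. For the caveolins it held 1.20-fold (Cav1) and 1.09-fold (Cav2). So 4 of the 7 members passed 2-fold in this library, where 1.55% of all tested genes did. The members were chosen with earlier results of these data known, so these shares are a description and not a test. Adipoq, the adipocyte hormone adiponectin, stood at 0.876-fold in the same library, and Adgre1, a macrophage marker, at 1.03-fold. The summed macrophage markers were 1554 CPM in replicate 3, and 1024 and 1380 CPM in replicates 1 and 2. The summed mural cell markers of replicate 3 were 789 CPM, and those of replicates 1 and 2 were 598 and 504 CPM. The summed adipocyte markers of replicate 3 were 47587 CPM, and those of replicates 1 and 2 were 52663 and 57539 CPM.

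Genes whose log2 levels followed a member most closely over the 12 libraries were picked by Pearson's r among 9821 genes with a mean CPM of at least 10, as a description. The libraries share groups and scaling, so a high r reflects the group pattern as well. Cav1 was followed by Ehd2 (r = 0.991) and Hsdl2 (r = 0.984), and Cav2 by Syap1 (r = 0.990) and Ghitm (r = 0.987). Sfrp5 was followed by Srpx2 (r = 0.954) and Sod3, the extracellular superoxide dismutase (r = 0.950). Bmp3 was followed by Itgb5, an integrin subunit (r = 0.976), and Pcyox1 (r = 0.968), and Npr3 by Gdpd5 (r = 0.960) and the matrix protease Adamts5 (r = 0.947). Sncg was followed by Csrp1 (r = 0.951) and Ugt1a7c (r = 0.914), whose family shares exons and so shares reads. Fgf1 had the lowest values, with Ttc4 (r = 0.883) and Gas6 (r = 0.879). In ND_WT replicate 3 Adamts5 held 437 CPM, whereas replicates 1 and 2 held 143 and 86.0 CPM.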

How the data were processed

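The authors deposited 1 table of raw CPM, which gives each gene's share of its library's reads, per the file headers. Per the submitters' processing notes, STAR 2.7.3a, featureCounts 2.0.0, DESeq2 and the mm10 build are listed, with no role stated. How strand and multi-mapped reads were treated, and which annotation was used, is not given in the sources used here. Less an offset of 0.01 read, 100% of the deposited CPM values came out as whole reads within a tolerance of 0.05 read, giving 20973140 to 25606629 reads per library. The floor of 3 reads equals 0.117 to 0.143 CPM and covers counting error only. No pair of replicates lay within sampling noise (chi-square over its degrees of freedom, 6.31 to 73.6). The 3 listed genes without a symbol held 0.0313% to 0.0679% of reads and were left out.

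Groups were taken from the titles, and replicates are biological per the labels' protocols. limma 3.58.1 in R 4.3.3, with a mean-variance trend, was fitted to log2(CPM + 1) over all 12 libraries with a mean per group (8 residual degrees of freedom), keeping genes at 0.5 CPM or more in 3 or more libraries. The pseudocount understates changes of low genes. P-values were two-sided, adjusted by Benjamini-Hochberg over 15597 genes and called at 0.05. Alternatives were TMM or DESeq2 size-factor scaling, pseudocounts of 0.25 and 5, no filter, a CPM of at least 1 in 6 libraries, edgeR 4.0.16 and DESeq2 1.42.0 on the recovered reads, only the groups compared, a replicate block, and each library left out. The fit was tested on simulated data. Gene lists are described by counts and medians, with no test of a list. Beside the members, the named genes were the called gene with the largest change in each direction of each list, the genes with the highest correlation to a member, and a few others given for a value named beside them, which were chosen after their values were seen. The members and lists were chosen with earlier results of these data known. Positions and promoter windows come from RefSeq, and strands and overlapping genes from GENCODE vM21, all in GRCm38.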

Additional observations from a re-analysis of the deposited data

Results flagged for a closer look

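The effect of TKO differed between diets for the following members, genes of the lists and other genes, by the interaction term of the limma model. Not every called gene of the lists is given here. Each value is the TKO minus WT change on HFD less that on the normal diet, on the log2 scale. Among members and caveola genes the values were 0.68 for Cav1, 0.58 for Cav2, 0.46 for Cavin2, -0.74 for Ehd1, 0.92 for Ehd2, -1.57 for Ehd4 and 1.31 for Pacsin3 (adjusted p between 5.5e-06 and 0.046). The caveola list thus held 5 genes called higher and 2 called lower for the interaction. The TKO change of Cav1 was 0.96 on HFD and 0.28 on the normal diet, and that of Ehd4 was -1.77 on HFD and -0.20 on the normal diet. The Cavin2 value was not called without any 1 of 8 libraries (highest adjusted p 0.10). Among genes of Wnt signalling they were -2.15 for Sfrp1, -0.80 for Ror1, 0.58 for Fzd4, 0.90 for Axin2, 2.26 for Apcdd1 and -1.36 for Ccnd1 (adjusted p between 6.0e-07 and 0.025). In the natriuretic peptide list they were 1.01 for Npr2 and -0.79 for Pde5a (adjusted p between 2.3e-04 and 0.040). The Pde5a value was not called without any 1 of 9 libraries (highest adjusted p 0.090), and the Fzd4 value without any 1 of 6 (highest adjusted p 0.059).

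In the BMP lists the differences were 0.99 for Gdf5, -3.05 for Gdf3, -0.44 for Eng, 1.21 for Acvr1c, -1.16 for Acvr1b, 0.69 for Chrd, -1.74 for Bmper, 1.16 for Smad9 and -1.42 for Id2 (adjusted p between 1.5e-05 and 0.017). In the FGF lists they were -1.58 for Fgf7, 1.40 for Fgf11, 1.20 for Fgfrl1 and -1.24 for Spred1 (adjusted p between 2.3e-05 and 2.9e-04). Among genes that followed a caveolin they were 0.40 for Hsdl2, 0.47 for Syap1 and 0.29 for Ghitm (adjusted p between 0.0024 and 0.036). Further values were -0.40 for Tet3, -2.94 for Mest, 1.11 for Adipoq and -2.81 for Adgre1 (adjusted p between 2.1e-05 and 0.036). The Tet3 and Ghitm values were each not called without any 1 of 8 libraries (highest adjusted p 0.083 and 0.098). The TKO change of Mest was -0.51 on HFD and 2.43 on the normal diet, and that of Adgre1 was -3.19 on HFD and -0.39 on the normal diet.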

How the results depend on the processing

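Scaling, pseudocount, filter and the libraries in the fit were varied 1 at a time, while edgeR and DESeq2 on recovered reads changed tool and scaling together. The calls of Cav1 and Cav2 on HFD and between diets in WT mice remained under every setting tried, and Cav1 lost its interaction call without the filter on low values. The uncalled changes that turned sign were small. With TMM and with size-factor scaling, Bmp3 in HFD_TKO against HFD_WT was 0.04, and in HFD_TKO against ND_TKO Sfrp5 was -0.01 and Sncg -0.07. By edgeR and by DESeq2 on recovered reads, Bmp3 in HFD_TKO against HFD_WT was 0.05, Sfrp5 and Sncg in HFD_TKO against ND_TKO were each -0.04, and Sncg in ND_TKO against ND_WT was -0.02. Npr3 in HFD_WT against ND_WT was -0.04 by edgeR and -0.03 by DESeq2. The Bmp3 call in that comparison was lost by edgeR (0.78) and DESeq2 (0.79), and Fgf1 passed by DESeq2 (-0.39). Fgf1 passed for the interaction by both (0.72), and Cav1 in ND_TKO against ND_WT by DESeq2 (0.33), which called 1400 genes there, against 889 by limma. Without the filter on low values, 1 member was called in ND_TKO against ND_WT (Cav2 lost, 0.32) and 1 for the interaction (Cav1 lost, 0.68). With only the groups compared in the fit, ND_TKO against ND_WT had 280 called genes and 0 members (Fgf1 at -0.75 and Cav2 at 0.32 lost). The same setting called 4 members in HFD_TKO against HFD_WT (Sfrp5 0.42 and Npr3 0.41 added) and 2 in HFD_TKO against ND_TKO (Fgf1 0.40 added), and lost Bmp3 in HFD_WT against ND_WT (1.20). It called 7683 genes in HFD_TKO against HFD_WT, where the fit of all groups called 7288. This setting has fewer libraries and takes the spread from the groups compared alone, and what moved the calls was not tested.

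The replicate numbers showed no pairing common to all groups. Same-numbered libraries of different groups had correlations of their deviations between -0.50 and 0.56, with 5 of 18 over 0.1. For ND_TKO with HFD_TKO these were 0.39, 0.56 and 0.12, and those of differently numbered libraries were -0.53 to 0.11. Whether these groups were paired was not tested. With a replicate block, 0 members were called in ND_TKO against ND_WT (Fgf1 -0.75, adjusted p = 0.053, and Cav2 0.32, adjusted p = 0.066), and the other member calls did not change.

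For HFD_TKO against HFD_WT, 6103 to 7813 genes and 2 members were called with 1 library left out. For ND_TKO against ND_WT, 350 to 1853 genes and 0 to 5 members were called with 1 library left out, and the log2 changes that crossed the threshold or 0 were those of Sfrp5 (1.24 to 3.64), Sncg (-0.24 to 0.56), Bmp3 (0.20 to 1.27), Fgf1 (-1 to -0.56), Cav1 (0.22 to 0.37) and Cav2 (0.28 to 0.36). For HFD_WT against ND_WT, 7897 to 9343 genes and 2 to 5 members were called with 1 library left out, and the log2 changes that crossed the threshold or 0 were those of Sfrp5 (0.89 to 3.29), Npr3 (-0.09 to 0.68), Sncg (-0.66 to 0.14), Bmp3 (0.72 to 1.79) and Fgf1 (-0.44 to 0.00). For HFD_TKO against ND_TKO, 1716 to 4296 genes and 0 to 2 members were called with 1 library left out, and the log2 changes that crossed the threshold or 0 were those of Sfrp5 (-0.07 to 0.25), Npr3 (1.05 to 1.38), Sncg (-0.15 to 0.27), Fgf1 (0.30 to 0.49) and Cav1 (-0.02 to 0.01). For the interaction, 3541 to 5041 genes and 2 to 4 members were called with 1 library left out, and the log2 changes that crossed the threshold or 0 were those of Sfrp5 (-3.22 to -0.82), Npr3 (0.49 to 1.27), Sncg (-0.13 to 0.67), Bmp3 (-1.36 to -0.29) and Fgf1 (0.40 to 0.84). Without ND_TKO replicate 1, ND_TKO replicate 3 and ND_WT replicate 1, the Tet2 change in ND_TKO against ND_WT, -0.06 with all libraries, was 0.05, 0.02 and 0.10 (range -0.25 to 0.10 over all 12 left out). The spread within groups limits the smaller changes: the SE of Sfrp5 was 0.87, against 0.08 for Cav2.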

Other observations

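Markers of further cell types of the fat pad gave these values. Of 8 mural cell markers, 1 rose and 1 fell in HFD_TKO against HFD_WT, or 5 and 1 with TMM scaling (4 called without ND_WT replicate 2 or 3, and 1 without HFD_TKO replicate 2 or HFD_WT replicate 2). In HFD_WT against ND_WT, 3 rose and 3 fell (3 called in all without HFD_WT replicate 2). None of 10 mesothelial markers was called in HFD_TKO against HFD_WT (4 were called without HFD_TKO replicate 1), and 6 fell in HFD_WT against ND_WT. The summed mesothelial level spanned 52.5 to 254 CPM in HFD_TKO, 131 to 161 CPM in HFD_WT, 167 to 308 CPM in ND_TKO and 317 to 471 CPM in ND_WT. Of 7 tested Schwann cell and neuronal markers, 2 rose and 2 fell in HFD_TKO against HFD_WT. Of 10 stromal markers, 6 fell in HFD_TKO against HFD_WT and 8 rose in HFD_WT against ND_WT (5 called without ND_WT replicate 1).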
